A study of Drosophila melanogaster with 18 samples.

Results

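The 71 genes that the deposited count files place on the Drosophila melanogaster Y chromosome were examined in RNA-seq libraries of third-instar larvae, out of 17411 genes in the files. A gene was taken as Y-linked when the first chromosome entry of its row was Y. The levels below are given for the 20 of these genes that reached a total of 10 counts over the 18 libraries, and the other 51 are accounted for by their counts. In all groups the mef2 driver, which is active in muscle, expressed a transgene: lacZ in the groups labelled as control, and NUAK in the groups labelled NUAK548 and NUAK550, which the labels join under 1 NUAK OE genotype without explaining the numbers. Each genotype was sequenced as whole larvae (L3) and as dissected muscle carcass, with 3 libraries in each of the 6 groups. All larvae were reared at 25 °C on cornmeal-yeast-agar food. The labels state no sex for the larvae and do not say whether replicates were independent crosses. Test results therefore refer to library-to-library spread, which may be technical. The genotypes may differ in more than the transgene, and the design cannot tell such differences apart from NUAK.

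The fly Y chromosome is present in males, and it carries few protein-coding genes, several of them spread over giant introns made largely of satellite repeats. It is needed for male fertility and not for male viability: its single-copy genes are transcribed mainly in primary spermatocytes of the testis, and many of their products build or move the sperm tail. Beside these genes the Y holds repeat families, among them the Suppressor of Stellate copies, whose small RNAs silence the X-linked Stellate repeats in the male germline.

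The libraries held between 14577914 and 22341807 counted reads. Nuak, the overexpressed gene, stood at 56.6 to 103 CPM (counts scaled to the library size, with trimmed mean of M values factors, TMM) in lacZ whole larvae, at 1105 to 1222 CPM in NUAK548 whole larvae and at 2150 to 2314 CPM in NUAK550 whole larvae, and it was higher than in lacZ in every NUAK library of both preparations. The 9 muscle genes used as tissue markers summed to 1756 to 7863 CPM in lacZ whole larvae and 39523 to 60071 CPM in lacZ carcass, and all 9 were higher in lacZ carcass by edgeR's quasi-likelihood test at an adjusted p below 0.05, as were 22.4% of all genes. One library stood apart from its group: NUAK548 whole replicate 1 held Y-gene reads at a level above lacZ, while replicates 2 and 3 of the same group held almost none. The counts of Y genes called in the whole-larva fits are therefore given with and without NUAK548 whole replicate 1. The labels give no batch or date for it.

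Silence was common on the Y. Of the 71 genes, 34 had 0 counts in all 18 libraries, which is 47.9%, against 6.94% of the 17340 genes on all other chromosomes and scaffolds. Among the X genes 6.28% of 2645 were silent, and among the genes of chromosome 4, the other small and largely heterochromatic chromosome, 0.901% of 111. The rest of the Y genes split into 17 with 1 to 9 counts and 20 with 10 or more. At the minimum of 10 counts, Su(Ste):CR42407 with 10 and CR40801 with 13 lay just inside, and Su(Ste):CR42430 with 9 and CR41504 with 7 lay just outside.

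Silent genes were unevenly spread over the kinds of Y gene. By biotype, 6 of the 20 protein-coding Y genes were silent (30.0%), 12 of the 23 pseudogenes (52.2%) and 16 of the 28 non-coding RNA genes (57.1%). The shares given above for other chromosomes were not split by biotype, so the gene mix is not matched. None of the 3 dynein heavy chain genes was silent, and of the 9 other single-copy protein-coding genes Pp1-Y1, which encodes a protein phosphatase 1 catalytic subunit, was the silent one. In the Mst77Y cluster, 18 tandem copies and pseudogene copies derived from the sperm chromatin gene Mst77F, 13 were silent and 5 reached the minimum. Of the 27 Suppressor of Stellate copies 16 were silent, 10 had fewer than 10 counts, and 1 reached the minimum. The remaining 14 pseudogenes and non-coding genes comprised 4 silent ones, 7 with fewer than 10 counts and 3 at or above it. The Mst77Y and the Suppressor of Stellate copies are known to be similar in sequence within each family, and the sources used here do not say how reads matching several copies were counted, so a 0 for a single copy is a 0 of assigned reads. The strand setting is not given either, so reads of a gene and of a transcript antisense to it cannot be told apart. An additional 10 genes that RefSeq assigns to the Y lie on unplaced scaffolds in the files, outside the 71, and all 10 had 0 counts.

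Reads from the Y were concentrated in 4 libraries. Counts summed over the 71 genes were 484, 420 and 529 in lacZ whole larvae, which is 20.1, 21.4 and 23.9 CPM. The 3 NUAK548 whole libraries held 932, 6 and 7 counts, or 33.8, 0.271 and 0.340 CPM. The 3 NUAK550 whole libraries held 4, 5 and 14 counts, or 0.236, 0.243 and 0.546 CPM. Thus all lacZ whole libraries lay above all NUAK550 whole libraries, while NUAK548 spanned both ends, with replicate 1 the highest of the 18 libraries. The exact Poisson 95% interval of NUAK548 replicate 1, 31.7 to 36.1 CPM, did not meet that of the highest lacZ library, 21.9 to 26.1 CPM. These intervals cover counting error only, since reads without molecular identifiers are not independent molecules.

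In muscle carcass the Y was close to the floor in every group. The lacZ carcass libraries held 10, 18 and 4 counts, the NUAK548 ones 3, 12 and 4, and the NUAK550 ones 7, 33 and 1. These ranges overlapped, and the highest, NUAK550 carcass replicate 2 at 2.03 CPM, was below the lowest lacZ whole library. Of the 2493 Y counts in the study, 94.9% came from the 3 lacZ whole libraries and NUAK548 whole replicate 1, and 128 counts came from the other 14 libraries. In these bulk samples, fewer cells of a type and less RNA per cell cannot be told apart.

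**Figure D1:**
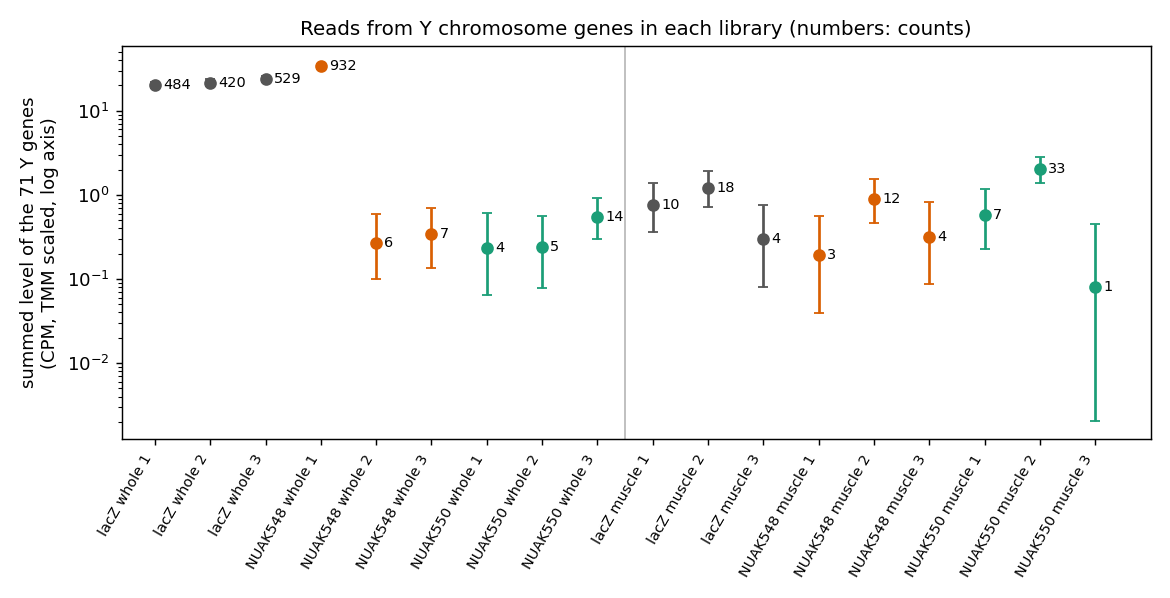
Summed level of the 71 Y genes in each of the 18 libraries, in TMM-scaled CPM on a log axis. Points are single libraries, bars are exact Poisson 95% intervals and the printed numbers are counts, and the 4 libraries with 420 to 932 counts stand above the other 14, which hold 1 to 33.

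The 3 NUAK548 whole libraries differed in how many Y genes were detected as well as in level. Replicate 1 had reads on 26 Y genes, as many as lacZ whole replicates 1 and 2 and 1 more than lacZ replicate 3. Replicate 2 had reads on 4 Y genes and replicate 3 on 6. In replicate 2 the reads were 2 for FDY, 2 for CR41507, 1 for CCY and 1 for CR40801. Replicate 3 held 2 for CR41507 and 1 each for CCY, FDY, ARY, CG45765 and CR41504, the last 2 being a copy of the Mst77Y cluster and a pseudogene close to FDY. NUAK550 whole libraries had reads on 3, 4 and 7 Y genes.

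The dynein heavy chain genes kl-2, kl-3 and kl-5 encode motor subunits of the sperm axoneme and are classical male fertility factors. kl-5 runs from 22250 to 137486 on the minus strand of the Y (BDGP6), and 11.9% of its 115.2 kb span is exon. It had 38, 47 and 68 counts in lacZ whole larvae, 164, 0 and 0 in NUAK548 whole larvae and 2, 0 and 2 in NUAK550 whole larvae. Every lacZ library was above every NUAK550 library, and NUAK548 replicate 1 was above every lacZ library.

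kl-3, from 336381 to 563165 on the plus strand, covers 226.8 kb, of which 6.12% is exon. Its counts were 14, 15 and 32 in lacZ, 74, 0 and 0 in NUAK548 and 0, 0 and 1 in NUAK550 whole larvae. For kl-2, from 573088 to 664173 on the plus strand, they were 23, 59 and 54 in lacZ, 84, 0 and 0 in NUAK548 and 1, 0 and 0 in NUAK550. Both genes had the order seen for kl-5, with no overlap between lacZ and NUAK550. In the 9 carcass libraries the 3 dynein genes together had 6 counts.

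Among the other single-copy genes, CCY, named for its coiled-coil domain, had the most counts. It had 40, 62 and 58 in lacZ, 102, 1 and 1 in NUAK548 and 0 in each NUAK550 whole library. ARY, which encodes a protein of the aldo-keto reductase family, had 51, 38 and 38 counts in lacZ, 60, 0 and 1 in NUAK548 and 0 in each NUAK550 library. For both genes lacZ and NUAK550 did not overlap, and NUAK548 replicate 1 lay above the 3 lacZ libraries.

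WDY, a WD-repeat gene that spans 214.4 kb with 1.58% of it exon, had 14, 12 and 29 counts in lacZ and 44, 0 and 0 in NUAK548 whole larvae. Pp1-Y2, the second Y-linked protein phosphatase 1 gene, had 38, 9 and 13 counts in lacZ and 41, 0 and 0 in NUAK548. PRY, named for its relation to polycystins, had 8, 8 and 14 counts in lacZ and 19, 0 and 0 in NUAK548. None of these 3 genes had a count in NUAK550 whole larvae. Pp1-Y2 was the most uneven of them within lacZ, and its NUAK548 replicate 1 level of 1.49 CPM lay within the range of the lacZ libraries.

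ORY and Ppr-Y were near the limit of detection. ORY, named for its relation to occludin, had 7, 9 and 9 counts in lacZ and 15, 0 and 0 in NUAK548 whole larvae. Ppr-Y, related to protein phosphatase regulatory subunits, had 14, 5 and 3 counts in lacZ and 15, 0 and 0 in NUAK548, and it has the longest span of the 71 Y genes, 248.3 kb with 0.689% exon. Neither had a count in NUAK550 whole larvae.

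FDY held the most carcass reads of the Y genes. This gene, from 3022289 to 3024024 on the plus strand, is a young duplicate of the autosomal gene vig2. It had 46, 28 and 68 counts in lacZ, 52, 2 and 1 in NUAK548 and 0, 2 and 1 in NUAK550 whole larvae. Its carcass counts were 2, 8 and 0 in lacZ, 0, 1 and 0 in NUAK548 and 0, 19 and 0 in NUAK550. Carcass reads of FDY thus came mainly from 1 library of lacZ and 1 of NUAK550, and its 30 carcass counts were 32.6% of all Y counts in carcass. In NUAK550 carcass replicate 2 FDY stood at 1.17 CPM, with an exact Poisson 95% interval of 0.703 to 1.82 CPM, against 0 counts and upper limits of 0.300 and 0.296 CPM in replicates 1 and 3. The parent gene vig2 was nearly level over the same libraries, at 211, 226 and 216 CPM, and its part in the FDY reads was not tested.

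The 5 expressed members of the Mst77Y cluster lie between 3293606 and 3354870. CG45765, the protein-coding copy with the most reads, had 65, 36 and 48 counts in lacZ, 75, 0 and 1 in NUAK548 and 0, 1 and 2 in NUAK550 whole larvae. Mst77Y-7 had 42, 25 and 37 counts in lacZ, 74, 0 and 0 in NUAK548 and 0 in each NUAK550 library. The pseudogene copy CR45771 had 38, 28 and 18 counts in lacZ, 53, 0 and 0 in NUAK548 and 0, 1 and 0 in NUAK550. All 3 copies were read in every lacZ whole library, and none had more than 2 counts in a NUAK550 whole library.

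Of the other copies, CR45775 had 22, 16 and 18 counts in lacZ and 25 in NUAK548 replicate 1, and Mst77Y-13 had 5, 4 and 2 in lacZ and 18 in NUAK548 replicate 1. Neither had a count in the other whole libraries. Mst77Y-13 had the highest ratio of NUAK548 replicate 1 to the lacZ mean among the 20 genes, 3.90, on 18 against 11 counts.

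Suppressor of Stellate copies were almost unread. Summed over the 27 copies, counts were 3, 5 and 7 in lacZ whole larvae, 8, 0 and 0 in NUAK548 and 0 in each NUAK550 library. In carcass, lacZ replicate 2 held 7 and NUAK550 replicate 2 held 6, of which 5 were Su(Ste):CR42407, and the other 7 libraries held 1 in all. Of the 14 Stellate genes, 12 had 0 counts in lacZ whole larvae and all 14 had 0 in NUAK550 whole larvae, and their summed level was at most 0.102 CPM in any lacZ whole library. Stellate was at the floor both where Suppressor of Stellate reads were present and where they were at 0. This is no check of silencing, since NUAK550 whole larvae also held only 11.3 to 14.9 CPM of the sperm genes listed below. How reads matching several Stellate repeats were counted is not known either.

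The 3 remaining genes at the minimum are pseudogenes with low counts. CR41507 had reads in 15 of the 18 libraries, 33 counts in all, of which 18 were in carcass. It had 2, 1 and 2 counts in lacZ whole larvae and 4, 2 and 2 in NUAK548 whole larvae, with overlap between all groups. CR40801 had 2, 2 and 0 counts in lacZ and 1, 0 and 4 in NUAK550 whole larvae, again with overlap. CR41506 had 7, 6 and 6 counts in lacZ and 0, 1 and 0 in NUAK550 whole larvae, with no overlap, as for the protein-coding genes. In NUAK548 it had 1, 0 and 0 counts. The pooled ratio of NUAK548 replicate 1 to lacZ was 0.126 with an exact 95% interval of 0.00303 to 0.791, so here the libraries with abundant Y reads differed. CR45948, a pseudogene below the minimum that was chosen after its values were seen, had 2 counts in each lacZ whole library and 0 in NUAK548 replicate 1.

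**Figure D2:**
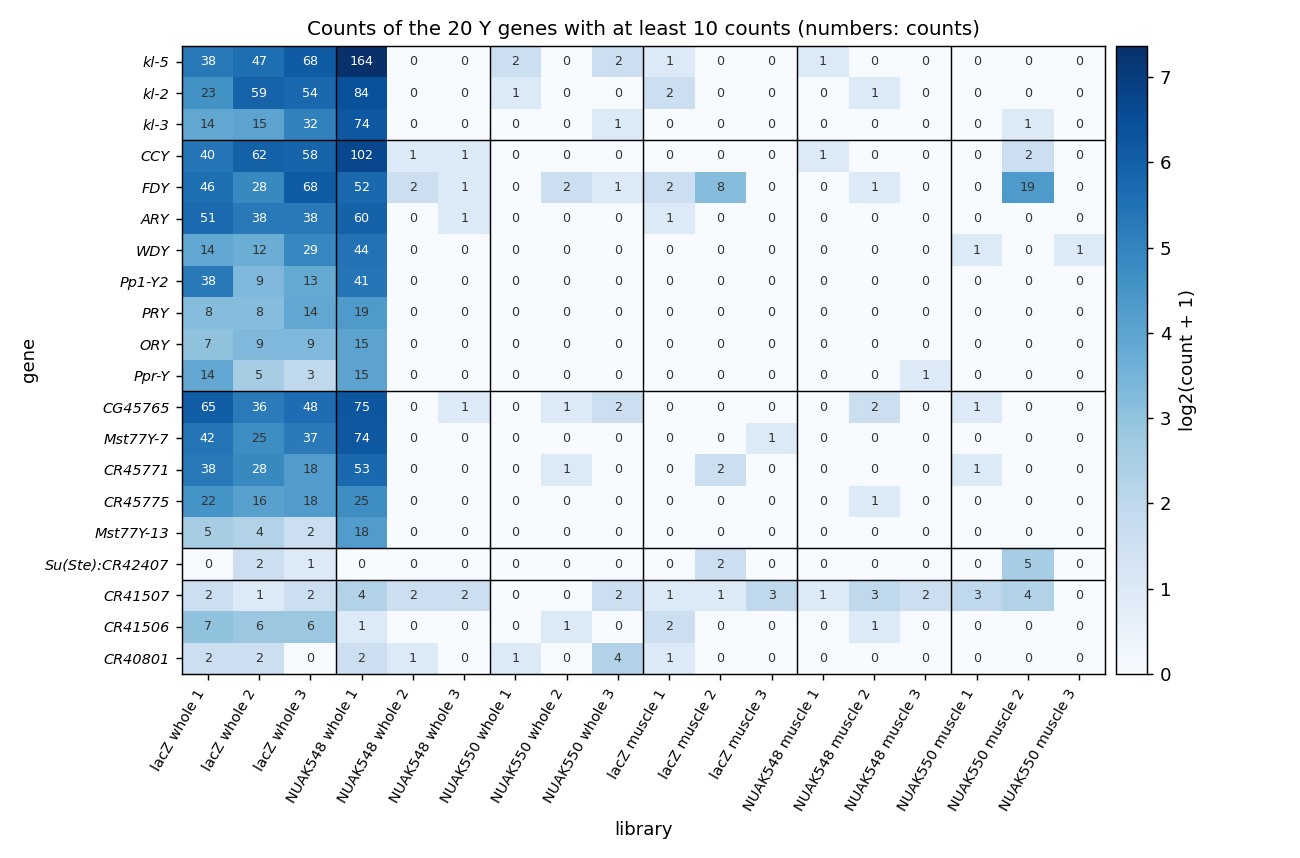
Counts of the 20 Y genes with at least 10 counts (rows, grouped by kind with black lines) in the 18 libraries (columns, grouped by genotype and preparation), with colour as log2(count + 1). The filled columns are the 3 lacZ whole libraries and NUAK548 whole replicate 1, and CR41507 is the gene with reads scattered over 15 libraries.

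Levels between genes were compared per kilobase of exon, as CPM per kb. In lacZ whole larvae the highest of the 20 genes were CG45765 at 2.76 ± 0.539 (SD, n = 3), Mst77Y-7 at 2.37 ± 0.385, FDY at 1.92 ± 0.761, CR45771 at 1.61 ± 0.512, ARY at 1.38 ± 0.144 and CR45775 at 1.29 ± 0.0872 CPM per kb. Neighbours in this order overlapped in their ranges over the 3 libraries, while CG45765, the first, lay above CR45775, the sixth of them, in all 3 libraries. Pp1-Y2 at 0.681 ± 0.477 and CCY at 0.620 ± 0.190 CPM per kb followed. WDY at 0.246 ± 0.122, Mst77Y-13 at 0.239 ± 0.0950, Ppr-Y at 0.190 ± 0.135, kl-5 at 0.172 ± 0.0548, kl-2 at 0.160 ± 0.0792, ORY at 0.141 ± 0.0313, PRY at 0.122 ± 0.0418 and kl-3 at 0.0671 ± 0.0329 CPM per kb formed the lower part, together with the 4 remaining genes, all pseudogenes or Suppressor of Stellate copies at 0.0336 to 0.267 CPM per kb. The dynein genes, which hold 27.4% of all Y counts, were therefore among the lowest per length, and the 6 highest were FDY, ARY and 4 of the 5 Mst77Y copies. The 3 genes of longest span (Ppr-Y, kl-3 and WDY) were all in the lower part. This is a description over 20 genes in libraries whose coverage along a transcript was not measured.

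In NUAK548 whole replicate 1 most Y genes were at or above the lacZ level, to an unequal extent. This library exceeded every lacZ whole library for 13 of the 20 genes, and the ratio to the lacZ mean ranged from 0 to 3.90. The share of all genes for which it did so was not computed. The totals by which the 20 genes were taken include its own reads, so the 13 is a description. Pooled over the 71 genes the ratio to lacZ was 1.55, with an exact 95% interval of 1.43 to 1.69. The dynein genes had a ratio of 2.20 (1.88 to 2.56), with kl-3 at 2.90 (2.04 to 4.14) and kl-5 at 2.56 (2.04 to 3.21), and the Mst77Y cluster had 1.45 (1.23 to 1.70). At the other end, ARY had 1.13 (0.816 to 1.55) and FDY 0.875 (0.624 to 1.21), both intervals including 1. These intervals cover counting error and compare 1 library with 3, so there is no replicate check of the excess. The dynein share of the Y counts was 34.5% in this library and 15.5% to 29.1% in the lacZ whole libraries. This library had the largest TMM factor of the 18, 1.41, and on raw library totals its Y level was 47.8 CPM against a lacZ mean of 26.0 CPM.

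**Figure D3:**
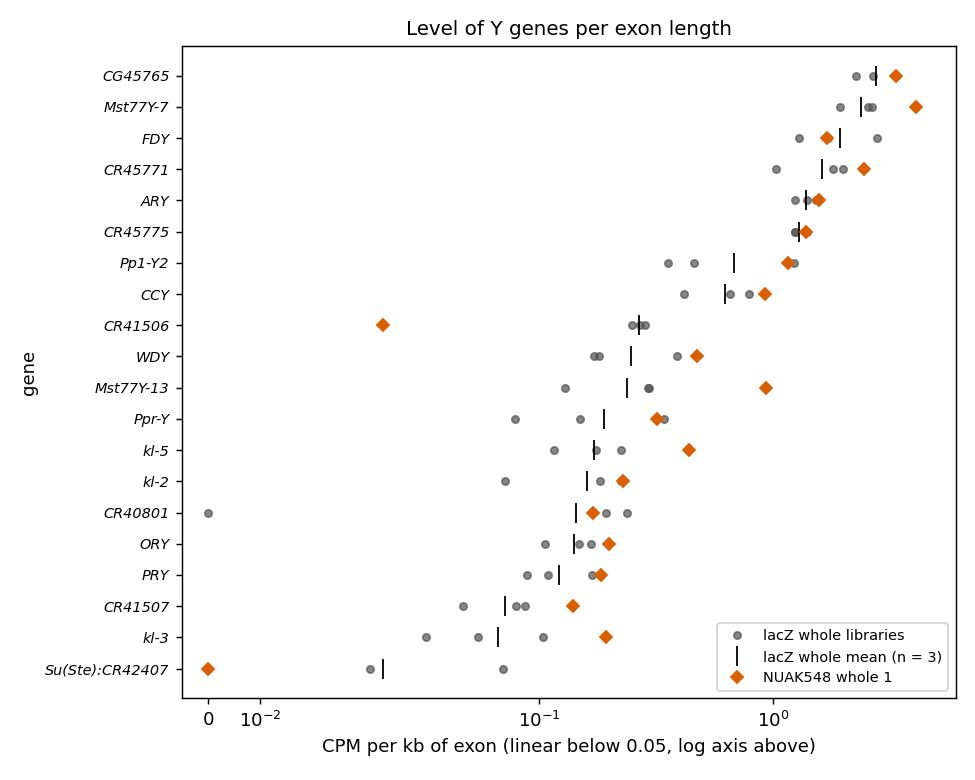
Level of each of the 20 Y genes in CPM per kb of exon (linear below 0.05, log above), with grey points for the lacZ whole libraries, a black tick for their mean and an orange diamond for NUAK548 whole replicate 1. The diamond lies to the right of all 3 grey points for 13 genes, and far to the left for CR41506.

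The test of NUAK550 against lacZ in whole larvae asked which genes differ between NUAK-expressing and control larvae. Of the 20 genes, 17 had every lacZ library above every NUAK550 library, beside 28.1% of the 14661 genes of the series with 10 or more counts, and 11 had 0 counts in all 3 NUAK550 libraries. Since most of the 20 genes reached 10 counts through lacZ and NUAK548 replicate 1 reads, this count describes them and is not set against that share as a result. Summed over the 71 genes, lacZ was 59.9-fold above NUAK550, with an exact 95% counting interval of 39.7 to 94.7, and 90.9-fold (47.8 to 199) without NUAK550 whole replicate 3. kl-5 was 36.7-fold higher (14.1 to 137), kl-2 131-fold (23.1 to 5198), on 1 NUAK550 count, and the Mst77Y cluster 97.0-fold (37.6 to 358). For genes with 0 NUAK550 counts the ratio is a lower bound, with the 3 NUAK550 libraries together set to 3 counts: CCY was thus at least 51.2-fold, ARY at least 40.7-fold and Mst77Y-7 at least 33.3-fold higher in lacZ. Without NUAK550 whole replicate 3, and so with less depth, these bounds were 30.4, 24.2 and 19.8, and kl-2 was 77.6-fold higher (13.7 to 3089). Without replicate 1, which held its count, kl-2 was at least 31.9-fold higher.

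The filter on low counts let 12 Y genes into the whole-larva fit of 12255 genes, and these are genes that pass through their lacZ and NUAK548 replicate 1 reads, so that a lower value in NUAK550 was in large part set by the filter. With all 9 whole libraries sharing 1 spread, edgeR's quasi-likelihood test called 0 of the 12 for NUAK550 against lacZ, where 0.808% of all genes were called. Their fitted log2 fold changes ran from -8.75 (CCY, SE 2.59) to -5.005 (kl-5, SE 2.26), with adjusted p from 0.0952 to 0.160, and 11 of the 12 had an unadjusted p below 0.05, as had 34.6% of all genes. SEs given for edgeR are the absolute log2 fold change over the square root of the test's F statistic. They are not standard errors estimated by the fit. DESeq2 called 5 of the 12 lower (11.5% of all genes). Without NUAK548 whole replicate 1, whose group takes no part in this contrast but shares its spread, edgeR called 12 of 12 lower, where 19.1% of all genes were called lower. The fitted values hardly moved and the SEs fell: CCY went to -8.70 (SE 0.719, adjusted p = 0.000273) and kl-5 to -5.01 (SE 0.625, adjusted p = 0.000903). With the lacZ and NUAK550 libraries alone, 11 Y genes passed the filter and 11 were lower, beside 19.2% of all genes. Fitted values of genes with 0 counts in a group depend on the prior count and are no bound.

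**Figure D4:**
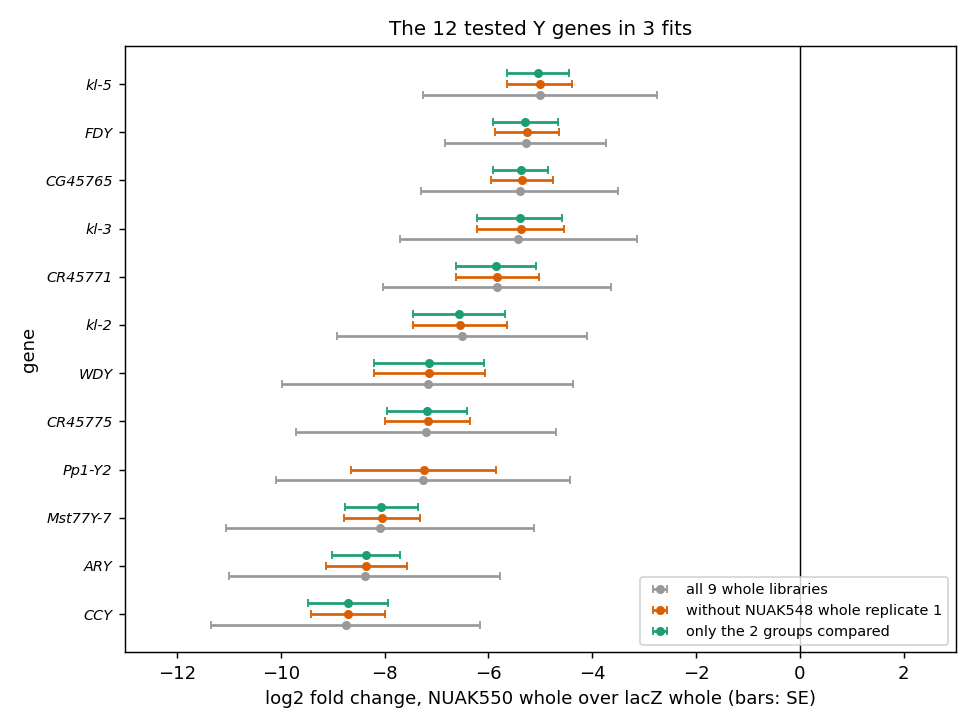
Fitted log2 fold change of NUAK550 over lacZ whole larvae, with bars for the SE derived from the F statistic, for the 12 tested Y genes in 3 edgeR fits. The points of each gene nearly coincide, the bars shrink once NUAK548 whole replicate 1 is left out, and Pp1-Y2 has no point in the fit of the 2 groups compared.

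NUAK548 against lacZ in whole larvae, which shares the lacZ libraries with the comparison above, had no Y gene called by edgeR among 12 tested (0.155% of all genes were called). None had an unadjusted p below 0.05, beside 10.5% of all genes. DESeq2 called 0 as well, against 3.98% of all genes. The fitted log2 fold changes ran from -1.58 (FDY, SE 1.23, adjusted p = 0.696) to 0.02 (kl-3, SE 1.63, adjusted p = 0.996), each fitted over 1 library rich in Y reads and 2 libraries with at most 2 counts for any tested gene. With a replicate block, kl-3 was at -2.17 and the number called stayed 0. Without replicate 1 all 12 were called lower, where 16.9% of all genes were called lower. kl-5 was then at -8.62 (SE 1.08, adjusted p = 0.00112) and FDY at -4.81 (SE 0.687, adjusted p = 0.00127). Replicate 1 was singled out by its Y reads, and without it the 12 genes pass the filter through lacZ reads. The direction was thus set in advance, and the count is a description that is not set against that share as a result. The same holds for the mean of both NUAK groups below. A test of NUAK550 against NUAK548 called 0 of 12 (0.139% of all genes). An unadjusted p below 0.05 was found for 6, beside 21.4% of all genes. DESeq2 called 1, namely CCY (2.74% of all genes lower). For the mean of both NUAK groups against lacZ, edgeR called 0 of 12 (0.424% of all genes). Here 6 had an unadjusted p below 0.05, beside 29.0% of all genes. DESeq2 called 1, namely FDY (5.48% of all genes lower). Without NUAK548 replicate 1, 12 of 12 were lower (18.9% of all genes).

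Carcass against whole larvae of the same genotype was tested in a fit of all 18 libraries and 12429 genes. In lacZ, 9 of the 12 tested Y genes were lower in carcass, where 37.1% of all genes were called lower. These 12 genes passed the filter through whole-larva reads, and none passed it in carcass alone, so the direction was set by the filter and the count is a description. CCY had a log2 fold change of -8.47 (SE 2.34, adjusted p = 0.0108) and CG45765 one of -8.33 (SE 2.33, adjusted p = 0.00939), both with 0 counts in the 3 lacZ carcass libraries. The 3 without a call were FDY at -3.13 (SE 1.57, adjusted p = 0.0991), Mst77Y-7 at -5.64 (SE 2.25, adjusted p = 0.0583) and Pp1-Y2 at -6.98 (SE 2.91, adjusted p = 0.0794). Pooled over the 71 genes, lacZ whole larvae were 28.3-fold above lacZ carcass (exact 95% counting interval 19.9 to 41.5), with FDY at 8.97-fold (4.74 to 19.1). Of the 10 FDY counts in lacZ carcass 8 were in replicate 2, and without that library FDY was 28.8-fold higher (7.84 to 240) in whole larvae. The number of calls rested on the libraries included. It was 12 without NUAK548 whole replicate 1 (36.9% of all genes lower). It was 5, 3 and 2 without lacZ whole replicates 1, 2 and 3 (32.9%, 30.6% and 31.3% of all genes), and 2 without each lacZ carcass library in turn (30.5%, 28.4% and 30.5%). DESeq2 called 3 of the 12, kl-5, CG45765 and CCY (31.9% of all genes).

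In NUAK548, 5 of 12 were lower in carcass (32.5% of all genes lower), and this count rested on whole replicate 1: it was 0 without that library (23.2% of all genes) and 10 without either of replicates 2 and 3 (33.4% and 33.7%). Leaving out each NUAK548 carcass library in turn also gave 0 (23.5%, 24.9% and 22.9% of all genes), and DESeq2 called 3, kl-5, FDY and CCY (31.1%). As in lacZ, the 12 genes passed the filter through whole-larva reads. The direction was thus set by the filter, and these NUAK548 counts are a description. In NUAK550, edgeR called 0 of 12 (44.6% of all genes called in either direction). None had an unadjusted p below 0.05, beside 50.7% of all genes. DESeq2 called 1 (25.3% of all genes lower), kl-5, on 4 counts in whole larvae and 0 in carcass. The NUAK550 effect was also compared between carcass and whole larvae as an interaction, in which edgeR called 0 of 12 (1.82% of all genes). Of the 12, 3 had an unadjusted p below 0.05, beside 22.8% of all genes, and DESeq2 called 0 (9.37% of all genes). Without NUAK548 whole replicate 1, a choice made after seeing the data, edgeR called 3, WDY, FDY and CCY (9.49% of all genes higher). These rest on carcass counts of 0 to 19 per library, and for WDY on 1, 0 and 1 in NUAK550 carcass. The genes passed the filter through lacZ whole-larva reads, so a higher value in the interaction was in large part set by the filter. The 3 calls are a description and are not set against that share as a result. No Y gene passed the filter in the carcass fits of 9821 genes, so single Y genes were not tested for NUAK548 or NUAK550 against lacZ there. The summed Y levels of the 3 carcass groups overlapped, with 1 to 33 counts per library.

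Genes off the Y that act with it in the male germline were read from lists. The 26 matched spermatid and sperm genes summed to 1172 to 1468 CPM in lacZ whole larvae, to 1623, 10.5 and 11.2 CPM in NUAK548 replicates 1, 2 and 3, and to 11.3 to 14.9 CPM in NUAK550 whole larvae. The 4 whole libraries with high Y levels were also the 4 highest for these genes. loopin-1, a leucyl aminopeptidase of the sperm tail, stood at 144, 130 and 142 CPM in lacZ, at 178, 0.587 and 0.923 CPM in NUAK548 and at 1.18, 0.825 and 0.702 CPM in NUAK550. For NUAK550 against lacZ in whole larvae edgeR called 0 of the 26 with all libraries (median log2 -7.12, beside 0.01 over all genes), and 26 lower without NUAK548 replicate 1, where 0.808% of all genes were called and 19.1% were lower. In lacZ all 26 were lower in carcass than in whole larvae, as were 37.1% of all genes. In the carcass fit 11 of the 26 passed the filter on low counts. The others passed it through whole-larva reads, which were highest in lacZ and NUAK548 replicate 1. For those genes a lower value in NUAK550 or in carcass was in large part set by the filter. These counts are a description and no separate support for the Y results.

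The 8 matched genes listed for axonemal dynein off the Y include tilB and Zmynd10 beside dynein chain genes. They summed to 46.9, 88.0 and 96.0 CPM in lacZ, to 114, 8.99 and 8.16 CPM in NUAK548 and to 8.58 to 9.13 CPM in NUAK550 whole larvae. In NUAK550 against lacZ 0 of 8 were called (0.808% of all genes), and 7 of 8 were lower without NUAK548 replicate 1 (19.1% of all genes). The 10 matched meiotic arrest regulators, which switch on the spermatocyte programme, summed to 45.8 to 51.0 CPM in lacZ, to 47.1, 13.3 and 14.0 CPM in NUAK548 and to 12.7 to 15.6 CPM in NUAK550, with 0 called (0.808% of all genes) and 9 lower without that library (19.1%). In the carcass fit 4 of the 8 and 4 of the 10 passed the filter, so the limit given for the sperm genes holds for the rest.

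The 6 genes listed for binding or processing Y-loop transcripts in spermatocytes include heph, which is also used elsewhere in the larva. The 6 summed to 411 to 594 CPM in lacZ and 356 to 392 CPM in NUAK550 whole larvae, with 0 called (0.808% of all genes) and 5 lower without NUAK548 replicate 1 (19.1%). In the carcass fit 4 of the 6 passed the filter, so the limit given for the sperm genes holds for the rest. heph, the polypyrimidine-tract-binding protein, made up most of this sum and had a log2 fold change of 0.00 (SE 0.179, adjusted p = 0.995).

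Early germ cell genes and somatic gonad genes were listed as well. The 3 matched early germline genes (bam, bgcn and zpg) summed to 7.90 to 8.60 CPM in lacZ, to 8.32, 1.08 and 1.90 CPM in NUAK548 replicates 1, 2 and 3 and to 1.01 to 1.18 CPM in NUAK550 whole larvae, with 0 called (0.808% of all genes) and 2 of 3 lower without NUAK548 replicate 1 (19.1%). In the carcass fit 1 of the 3 passed the filter, so the limit given for the sperm genes holds for the rest. The 4 gonad soma genes overlapped, at 61.1 to 107 CPM in lacZ and 61.1 to 89.4 CPM in NUAK550. With all libraries 0 were called (0.808% of all genes), and 0 without that library (19.1% of all genes lower and 5.91% higher). The 6 relatives of Y genes off the Y, among them Mst77F of the spermatid list, summed to 659 to 713 CPM in lacZ and 596 to 614 CPM in NUAK550. Of these, 0 were called (0.808% of all genes) and 2 of 6 were lower without NUAK548 replicate 1, a share to be read beside the same 19.1%. vig2, the parent of FDY, had a log2 fold change of -0.03 (SE 0.0949, adjusted p = 0.841).

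roX1, an X-linked non-coding RNA of the male dosage compensation complex, split the whole libraries as the Y did. It stood at 190, 163 and 189 CPM in lacZ whole larvae, at 181, 21.9 and 19.5 CPM in NUAK548 and at 27.0, 24.6 and 23.2 CPM in NUAK550. NUAK548 replicate 1 was within the lacZ range for roX1, and all other NUAK whole libraries were below it. In NUAK550 against lacZ whole larvae edgeR gave it a log2 fold change of -2.79 (SE 0.835, adjusted p = 0.0952), and of -2.79 (SE 0.143, adjusted p = 7.24e-06) without NUAK548 replicate 1. Of the 7 genes listed for male dosage compensation, 0 were called (0.808% of all genes), and 3 were lower without that library (19.1%). Their median log2 fold change was -0.22 in both fits. roX2 stood at 6.61, 4.28 and 4.39 CPM in lacZ, at 3.41, 0.0452 and 0 CPM in NUAK548 and at 0 in each NUAK550 whole library. In carcass roX1 stood at 490, 497 and 554 CPM in lacZ, at 338, 259 and 134 CPM in NUAK548 and at 60.9, 66.2 and 61.0 CPM in NUAK550. Carcass of lacZ therefore had the highest roX1 of the 6 groups while its Y level was 0.295 to 1.21 CPM. Muscle markers also differed between the whole groups: they summed to 19237 to 23267 CPM in NUAK550 against 1756 to 7863 CPM in lacZ and 1864 to 5968 CPM in NUAK548. For NUAK550 against lacZ 0 of 9 were called (0.808% of all genes), and 5 were higher without NUAK548 replicate 1 (5.91% of all genes higher). The part of muscle RNA, of germline RNA and of roX1 in the Y differences was not tested. The labels state no sex, and the part of the share of male larvae in each library was not tested either.

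**Figure D5:**
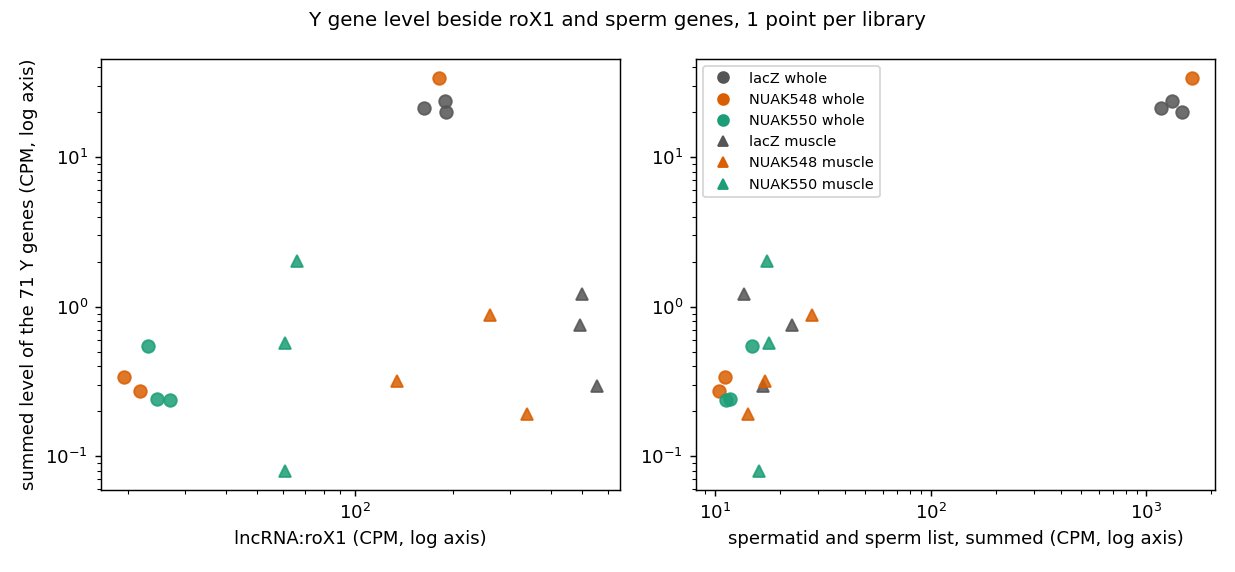
Summed level of the 71 Y genes (CPM, log axis) against roX1 (left, CPM, log axis) and against the sum of the 26 spermatid and sperm genes (right, CPM, log axis), with 1 point per library, circles for whole larvae and triangles for carcass. The 3 lacZ whole libraries and NUAK548 whole replicate 1 lie at the top of both panels, and the lacZ carcass libraries pair high roX1 with Y levels of 0.295 to 1.21 CPM.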

How the data were processed

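The authors deposited raw counts per gene for each of the 18 libraries, with exon coordinates. The submitters' processing notes name Trimmomatic 0.36, STAR 2.5.2b, featureCounts (Subread 1.5.2), DESeq2 and the build BDGP6. The sources used here do not state read layout, strand setting or annotation release. The authors' normalized tables were not used. File headers of the NUAK550 whole libraries carry the numbers 2, 3 and 5 where the labels say 1, 2 and 3, and the labels were followed.

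From the counts, CPM was computed with TMM scaling over all 18 libraries. Tests used edgeR 4.0.16 (filterByExpr, TMM, glmQLFit and glmQLFTest) on all genes, with Benjamini-Hochberg adjustment over all genes tested and a threshold of 0.05. Whole larvae and carcass had 1 fit each of 9 libraries, and comparisons between preparations used 1 fit of 18. The edgeR procedure was tested on simulated data. DESeq2 1.42.0, RLE and TMMwsp scaling, a total-count filter, a replicate block, fits of the compared groups alone and leaving out each library were alternatives. Leaving NUAK548 whole replicate 1 out of fits whose contrast does not use its group was chosen after seeing the data. Ratios of pooled counts used TMM-scaled totals and exact 95% intervals, with a floor of 3 counts over a group. The rule for named genes took every single-copy Y gene with 10 or more counts, the 8 other Y genes of highest mean CPM and at most 3 genes per list off the Y. Su(Ste):CR42407, the gene of that kind outside the 8, and the Y genes below 10 counts were named after their values were seen. Gene symbols came from a reference name table that matched all 71 Y genes, and 69 of the 71 had the same start and end in a reference annotation. List symbols with no match (1 to 2 in 5 of the lists) were dropped. Replicate numbers were held to pair the libraries for lacZ and NUAK548 whole larvae, where deviations of same-numbered libraries correlated at 0.104, 0.407 and 0.397. This comes from the values, not from the labels. Differently numbered libraries of other groups correlated as well, for instance lacZ carcass replicate 1 with NUAK550 carcass replicate 2 at 0.400, so pairing is not established. The main fits used group only, and the replicate block was an alternative. Pooled ratios were also taken without each library in turn, chosen after seeing the data. Replicates were separate libraries: the lowest chi-square per degree of freedom between 2 replicates of a group was 40.4. The members and lists were chosen with earlier results of these data known.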

Additional observations from a re-analysis of the deposited data

How the results depend on the processing

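The counts of Y genes called moved mostly with single libraries and with the sharing of the spread. Over leave-one-library-out fits, the number called ranged from 0 to 12 for NUAK548, for NUAK550 and for the mean of both against lacZ in whole larvae, from 2 to 12 for lacZ carcass against whole larvae, from 0 to 10 for NUAK548 carcass against whole larvae and from 0 to 3 for the NUAK550 interaction, and it was 0 throughout for NUAK550 against NUAK548 and for NUAK550 carcass against whole larvae. In the whole-larva comparisons with lacZ every leave-out gave 0 except that of NUAK548 whole replicate 1. DESeq2 called 5 for NUAK550 against lacZ, 1 each for NUAK550 against NUAK548, the mean of both against lacZ and NUAK550 carcass against whole larvae, and 3 each for lacZ and NUAK548 carcass against whole larvae. With the 2 groups compared alone, NUAK550 against lacZ had 11 called. RLE and TMMwsp scaling and the filter of 10 or more counts kept every count within 1.5 times. In NUAK548 against lacZ, leaving out 1 library moved kl-5 between -8.62 and 0.41, kl-3 between -7.29 and 0.60, WDY between -7.14 and 0.020 and Pp1-Y2 between -7.25 and 0.012 (log2), changes of sign without a call on the positive side. Apart from lacZ and NUAK548 whole larvae, no 2 groups had all 3 same-numbered pairs of libraries correlated above 0.1 in their deviations, which ran from -0.411 to 0.357 within carcass and from -0.221 to 0.215 between preparations. With a replicate block, NUAK548 carcass against whole larvae went from 5 called to 0, kl-3 in NUAK548 against lacZ went to -2.17 on the log2 scale, and the other counts stayed within 1.5 times. A minimum total of 1 count instead of 10 keeps 37 Y genes and one of 50 keeps 12. On raw library totals the lacZ whole mean of the summed Y level was 26.0 CPM instead of 21.8, and the other group means moved by less than their SD. Fits of the 2 groups compared alone had no Y gene past the filter for NUAK550 against NUAK548 and for carcass against whole larvae in either NUAK group. Apart from the construction of fits with fewer samples, the cause of these changes was not tested. Depth limits every carcass value and all Suppressor of Stellate copies.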
